A study of Mus musculus with 3 samples.

Results

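The 6 genes described here encode constant regions of mouse immunoglobulins: Ighm and Ighd the heavy chains of IgM and IgD, Igkc the kappa light chain, and Iglc1, Iglc2 and Iglc3 the lambda light chains. They were taken by symbol, are 6 of the 28692 features in the deposited matrices, and were described in 1866 B cells of 7642 cells kept and in the cells around them. A B cell was any kept cell with at least 3 unique molecular identifiers (UMIs, each standing for 1 captured RNA molecule) of Cd79a and Cd79b together, which encode the signalling partners of surface immunoglobulin, so none of the 6 genes took part in the choice. The study profiled whole lung of 3 wild-type (WT) C57BL/6 mice, numbered 2, 3 and 4, at P14 after room air from postnatal day 1 to 14. Each mouse gave 1 library from a well loaded with 16000 cells (10x Genomics 3′ chemistry, v3), and there was 1 condition, so the comparisons below are between cells of the same 3 lungs.

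A B cell joins a rearranged variable region to these constant regions. As background, IgM and IgD come from the same long heavy chain transcript, which is cut and spliced to either end, and IgD rises as newly formed B cells mature into follicular B cells. A mature B cell usually carries a productive light chain of only 1 kind, kappa or lambda, and kappa is much the more common in mice. In these 3′ libraries a UMI marks the gene but not whether the RNA carries a productive variable region.

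The heavy chain genes lie side by side on the minus strand of chromosome 12, Ighm (ENSMUSG00000076617) at chr12:113418558-113422730 and Ighd (ENSMUSG00000104213) at chr12:113406604-113416324. Igkc (ENSMUSG00000076609) is on the plus strand at chr6:70726435-70726966, within the span of the non-coding gene Gm43291 but sharing 0 exon bases with it. The lambda genes are on the minus strand of chromosome 16, Iglc1 (ENSMUSG00000105906) at chr16:19061618-19062071, Iglc3 (ENSMUSG00000105547) at chr16:19065230-19065681 and Iglc2 (ENSMUSG00000076937) at chr16:19198396-19200351. Positions are those of mm10 (GRCm38) in the GENCODE M21 annotation. The antisense gene 2010309G21Rik runs across Iglc1 and Iglc3 on the other strand and shares 93 of the 452 exon bases of Iglc3.

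The lambda genes are shown side by side because the counts of Iglc2 and Iglc3 can be told apart only where their sequences differ. The 150 bases are the same stretch of the first coding bases of each constant exon, read 5′ to 3′ from the GRCm38 reference, at chr16:19061920-19062069, chr16:19198701-19198850 and chr16:19065530-19065679 on the minus strand, and capitals mark the 35 positions that are not the same in all 3 genes:
Iglc1: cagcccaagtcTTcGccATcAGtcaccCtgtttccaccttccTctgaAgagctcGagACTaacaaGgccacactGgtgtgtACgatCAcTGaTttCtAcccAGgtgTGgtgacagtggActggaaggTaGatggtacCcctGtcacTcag
Iglc2: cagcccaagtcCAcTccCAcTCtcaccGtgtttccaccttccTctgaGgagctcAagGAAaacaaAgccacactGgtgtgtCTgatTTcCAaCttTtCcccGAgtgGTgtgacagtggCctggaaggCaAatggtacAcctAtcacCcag
Iglc3: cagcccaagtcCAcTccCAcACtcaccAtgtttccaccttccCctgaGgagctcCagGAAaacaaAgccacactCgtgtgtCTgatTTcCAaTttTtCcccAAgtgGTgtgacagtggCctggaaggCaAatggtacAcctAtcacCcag
In this stretch Iglc2 and Iglc3 differed at 7 positions, Iglc1 and Iglc2 at 33, and Iglc1 and Iglc3 at 32. Over the whole coding part Iglc2 and Iglc3 were 96.5% identical and after the stop codon 92.8% identical, whereas Iglc1 shared 74.8% of its coding bases with Iglc2 and 75.4% with Iglc3. Counts of Iglc2 against Iglc3 are therefore uncertain, and Iglc1 is the best separated by sequence of these 3 lambda genes. It was nearer to the lambda gene Iglc4, with 86.5% of coding bases shared, and Iglc4 had only 27 UMIs in the B cells. Igkc shared between 53.2% and 56.5% of its coding bases with the lambda genes.

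The libraries held 22476491 to 25192427 UMIs in 3034 to 3475 cell barcodes each, 9644 in all, and the median kept cell had 4853 to 7119 UMIs. B cells were 17.4% of kept cells in mouse 2, 35.3% in mouse 3 and 20.1% in mouse 4, and their median depth was 4200, 4014 and 3981 UMIs. Of the 1866 B cells, 1839 (98.6%) had UMIs of at least 3 of 8 other B-cell genes, and 1773 lay in 2 clusters that carry B-cell markers. Ms4a1, which encodes the B-cell surface protein CD20, had a UMI in 94.2% to 95.4% of B cells and in 0.913% to 1.55% of all other cells. The 93 B cells in other clusters included 22 in clusters of AT2 cells (the surfactant-making epithelial cells) and 22 in unnamed clusters. The summed B cells held 2469191, 4298039 and 3202113 UMIs in mice 2, 3 and 4. Without these 93 cells they held 1799170, 3725570 and 2161022. Surfactant RNA was also found in B cells: Sftpc, an AT2 gene, had a UMI in 55.9% to 84.8% of them, whereas the T-cell gene Cd3e had one in at most 0.326%.

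The 6 genes were B-cell genes in this lung. Of all their UMIs in kept cells, 98.3%, 98.6% and 98.1% were in the B cells of mice 2, 3 and 4 (98.3% ± 0.262, SD, n = 3), and together they made up 1.63%, 2.02% and 1.52% of all B-cell UMIs. Igkc and Ighm were the most abundant, followed well below by the 3 lambda genes and Ighd.

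Ighm, the IgM heavy chain, was present at 5511, 7726 and 5524 CPM (UMIs of the gene scaled to the same total of 1000000 UMIs) in the summed B cells of mice 2, 3 and 4 (6254 ± 1275, SD, n = 3), and the median B cell held 31, 33 and 30 Ighm UMIs. These sums include the 93 B cells outside the B-cell clusters, whose RNA counts in the total behind CPM. In the cluster led by Ms4a1 and Vpreb3 Ighm was at 8935, 10237 and 9498 CPM. In the one led by Fcer2a it was at 6212, 6555 and 6264. The part of the 93 cells in the differences between mice was not tested. Ighd, the IgD heavy chain, was present at 753, 947 and 775 CPM (825 ± 106), with a median of 3, 3 and 4 UMIs per cell. Almost every B cell therefore showed Ighm (98.8% ± 0.810 of cells with a UMI), and most showed Ighd (85.7% ± 0.919).

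Igkc, the kappa light chain, was present at 6681, 7501 and 5904 CPM (6695 ± 799), with a median of 35, 33 and 32 UMIs per cell. In the same 2 B-cell clusters it was at 10878, 9392 and 9883 CPM and at 7579, 7208 and 6928. Among the lambda genes, Iglc2 was present at 1333, 1546 and 1133 CPM (1337 ± 207) and Iglc1 at 1200, 1525 and 1116 (1280 ± 216). Iglc3 was at 787, 940 and 731 CPM, close to Ighd. All values here count 3′ ends, 1 per captured molecule, and were not divided by length. In the order Igkc, Ighm, Iglc2, Iglc1, Ighd and Iglc3, the neighbours Igkc and Ighm, Iglc2 and Iglc1, and Ighd and Iglc3 overlapped between mice, whereas all 3 mice separated Ighm from Iglc2 and Iglc1 from Ighd.

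The spread among cells was much wider than the spread among mice. From the lower to the upper quartile, B cells held 22 to 43 Ighm UMIs and 20 to 48 Igkc UMIs, and single cells reached 238 and 277. The highest count of Iglc1 in a cell was 213, of Iglc2 153, of Iglc3 58 and of Ighd 31. Across the 1866 cells, which share 3 libraries and differ in depth, Ighm counts ran with Igkc (Spearman rho 0.45) and Iglc1 (0.42) and slightly against Ighd (−0.15).

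Against every other class of lung cell, the 6 genes were higher in B cells in all 3 mice. This comparison summed UMIs per mouse over B cells, other immune, endothelial, epithelial and stromal cells and used edgeR's quasi-likelihood test over 13771 genes, with Benjamini-Hochberg adjusted p-values called at 0.05. The 6 genes were called higher against other immune cells, where 22.2% of all tested genes were, and likewise against endothelial (32.6% of all genes), epithelial (31.5%) and stromal cells (34.0%). Genes with few UMIs outside B cells passed the filter on low counts through their B-cell sums and so had to differ, and the calls are given as a description. Ighd and the lambda genes held 0 to 32 UMIs per mouse in each of the other classes. Ighm was at 218, 247 and 229 CPM in other immune cells, a difference of 4.66 on the log2 scale (SE 0.38, adjusted p = 2.27e-07), the smallest of the 24 differences. Igkc was at only 8.10, 14.4 and 10.9 CPM in the same cells, a log2 difference of 9.10. Against the 3 non-immune classes the log2 differences of all 6 genes lay between 8.54 (Iglc2, stromal) and 10.45 (Iglc3, stromal). The p-values measure the spread between 3 mice.

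**Figure D1:**
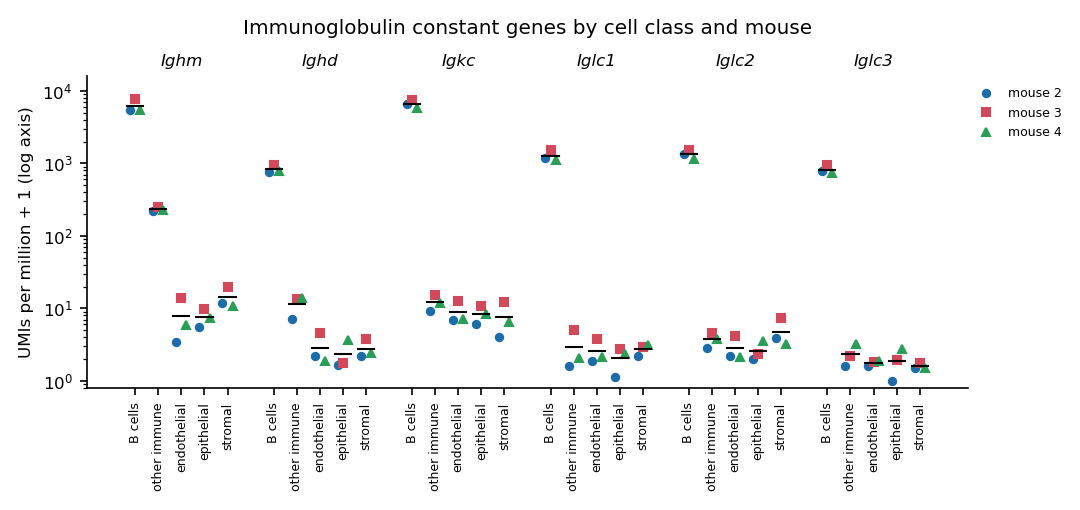
CPM plus 1 (log axis) of each of the 6 genes in B cells, other immune, endothelial, epithelial and stromal cells, with 1 point per mouse and a bar at the mean of the 3 mice. All 6 genes sit highest in B cells, and Ighm alone stands above 200 CPM in other immune cells.

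Kappa and lambda RNA were then compared within single B cells. The light chain share was the sum of Iglc1, Iglc2 and Iglc3 as a percentage of that sum plus Igkc, in the 1832 B cells with at least 5 light chain UMIs. The other 34 B cells had a median of 15980 UMIs, and only 14.7% of them lay in the B-cell clusters. The median share was 30% in mouse 2, 30.3% in mouse 3 and 29.0% in mouse 4, and the quartiles of all cells lay at 20.97% and 42.9%.

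Most B cells thus held kappa RNA together with a smaller amount of lambda RNA. By shares of at most 10% (called kappa), at least 50% (called lambda) and anything between (mixed), 132 cells were kappa (7.21%, exact 95% binomial interval 6.06 to 8.49), 1391 mixed (75.9%) and 309 lambda (16.9%, interval 15.2 to 18.7). The lambda class held 15.6%, 17.5% and 16.8% of cells in mice 2, 3 and 4 (16.6% ± 0.957, SD, n = 3). These intervals, like all intervals given here, cover counting error only.

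The classes are ranges of a share and not separate cell types, and the distribution had 1 broad peak and 1 small one at its end. The range of 20% to 30% held 505 cells (27.6%), that of 80% to 90% only 25, and that of 90% to 100% again 116 cells (6.33%). The 116 cells of the last range had a median of 0 Igkc UMIs and 48 lambda UMIs. Just under and just over the lambda limit lay 87 cells (45% to 50%) and 61 cells (50% to 55%), and around the kappa limit 80 cells (5% to 10%) and 119 cells (10% to 15%). With a limit of 80% in place of 50%, lambda cells were 7.58% of B cells.

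**Figure D2:**
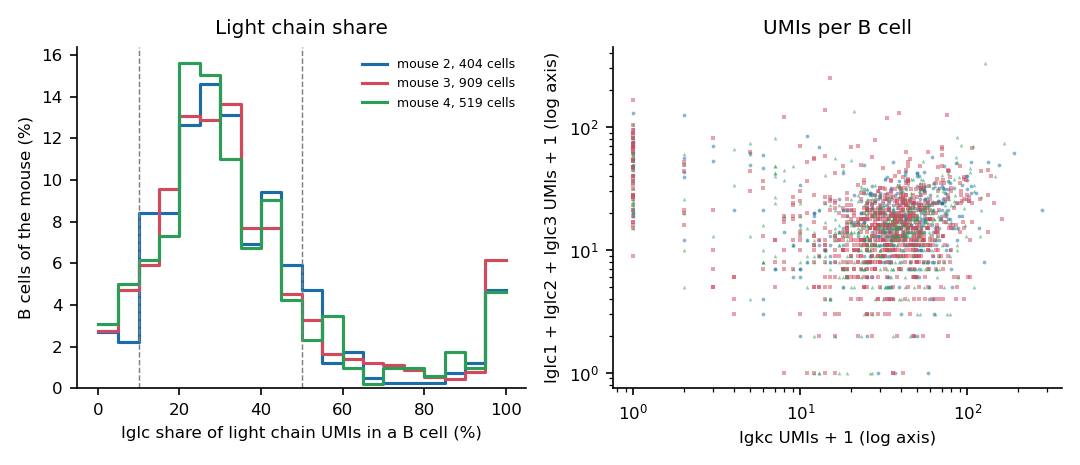
Left, percentage of each mouse's B cells by Iglc share of light chain UMIs, with dashed lines at the class limits of 10% and 50%. Right, Igkc UMIs plus 1 against the sum of Iglc1, Iglc2 and Iglc3 UMIs plus 1 in each B cell (log axes, colours as on the left), where a main cloud holds both kinds of RNA and a separate column of cells lies at 0 Igkc UMIs.

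In the 1523 cells with a share under 50%, the lambda RNA came from all 3 genes. Their mean was 42.2 Igkc UMIs, 4.82 of Iglc1, 6.15 of Iglc2 and 4.15 of Iglc3, and 98.8% had at least 1 lambda UMI. In 1075 of them (70.6%) all 3 lambda genes were seen in the same cell. The 5776 kept cells outside the B cells held 0.0499 lambda UMIs per cell, and 1 of them had all 3 genes, at a median depth of 8139.5 UMIs against 4076. The 5154 of them with no Cd79a or Cd79b UMI, a set chosen for its lack of B-cell RNA, held 0.0456 per cell. The part of free RNA in the lambda counts of the B cells was not tested. The picture was the same in the 1481 of the 1523 cells that lay in B-cell clusters (70.6% with all 3 genes) and in the 1486 that were not marked as doublets (70.7%).

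In the 141 cells with a share of at least 80%, by contrast, 1 lambda gene usually held most of the lambda UMIs. Iglc1 led in 90 of the 141 cells (63.8%, exact interval 55.3 to 71.7), Iglc2 in 34 (24.1%) and Iglc3 in 17 (12.1%). In the cells led by Iglc1 that gene made 77.1% of lambda UMIs, in those led by Iglc2 71.3%, and in those led by Iglc3 66.0%. Since the leading gene was picked in each cell as the highest, its share is a description. In the cells led by Iglc2 the closely similar Iglc3 made 12.4% of lambda UMIs, and in those led by Iglc3 Iglc2 made 19.8%.

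The lambda variable genes Iglv1, Iglv2 and Iglv3 were rarely captured by the 3′ chemistry. The cells with a share under 50% held 198 of their UMIs (0.860 per 100 lambda constant UMIs) and those with at least 80% held 38 (0.531 per 100). Iglv3 gave 136 of the 198 UMIs in the first set and Iglv1 23 of the 38 in the second. Iglv2 gave 1 and 2 UMIs.

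Heavy chain RNA and other genes were then compared between lambda and kappa cells, summed per mouse (309 against 132 cells). Igkc and the lambda genes chose these classes and are not tested. Ighd was at 811, 831 and 959 CPM in lambda cells and at 591, 580 and 611 in kappa cells, higher in 3 of 3 mice without overlap, with a log2 difference of 0.64 (SE 0.14) that missed the threshold (edgeR, adjusted p = 0.192). Ighm was at 5882, 7073 and 6965 CPM in lambda cells and at 8022, 8716 and 6441 in kappa cells, and the groups overlapped (log2 difference −0.12, edgeR adjusted p = 0.903). The kappa sum of mouse 4 held 217533 UMIs from 43 cells, and 128807 from the 39 of them in B-cell clusters. The differences of Ighd and Ighm turned with the class limit. Between cells with a share of at least 80% and those with at most 20% (141 against 427 cells) the log2 difference was −0.29 for Ighd and 0.16 for Ighm, neither past the threshold.

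Only 0.175% of the 5136 genes tested were called between lambda and kappa cells, 9 genes of which 4 are the light chain genes of the rule. The others were Tgfbi, Apoe, Mgp, Fos and Eln, all higher in lambda cells. Eln, which encodes elastin, was at 2215, 877 and 1323 CPM in lambda cells and at 90.9, 80.9 and 234 in kappa cells (log2 difference 3.49, edgeR adjusted p = 0.0175). Mgp, the matrix Gla protein gene, was at 650, 205 and 659 against 11.4, 20.2 and 36.8 (log2 difference 4.42). Stromal RNA stood higher in the lambda cells as a whole: the 5 myofibroblast markers summed to 357, 193 and 285 CPM in lambda cells and to 0, 3.37 and 41.4 in kappa cells, with 1 of the 5 called, and the 6 stromal markers to 729, 453 and 591 against 34.1, 43.8 and 455. The part of that RNA in the 5 calls was not tested. Of the 5, Apoe, which encodes apolipoprotein E, was the only one called by edgeR among B cells of the B-cell clusters (log2 difference 5.68, adjusted p = 8.27e-12), where Eln was at −0.29 and Tgfbi, Mgp and Fos did not pass the filter on low counts. The count also rested on single mice, with 5, 0 and 23 genes called without mouse 2, 3 and 4, and was 16 with the mouse as a block. For the count of 0, 216 of 4829 genes had an unadjusted p under 0.05.

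None of the 56 tested genes of the B-cell lists was called between lambda and kappa cells by edgeR, while 22 had an unadjusted p under 0.05 and DESeq2 called 8. Of these genes, Fcer2a, the low-affinity IgE receptor CD23 of follicular B cells, was at 252, 252 and 353 CPM in lambda cells and at 125, 131 and 133 in kappa cells (log2 difference 1.22, edgeR adjusted p = 0.0703). Vpreb3, a gene of immature B cells, was at 354, 533 and 502 against 1261, 1334 and 759 (log2 difference −1.17, adjusted p = 0.131 by edgeR). A setting added after seeing the data kept to B cells of the B-cell clusters alone. There edgeR called 84 genes, 80 of them other than light chain genes, and 10 of the 52 list genes tested. The share of all tested genes called there is not given here, so the list count has no background. Fcer2a (log2 difference 1.13, adjusted p = 0.000371 by edgeR), S100a6 (2.75), Bhlhe41 (1.22), Mzb1 (0.79), Plac8 (0.71) and H2-Aa (0.68) were then higher in lambda cells. Vpreb3 (−0.99, adjusted p = 9.99e-05 by edgeR), Cd72 (−0.91), Txndc5 (−0.78) and Cd24a (−0.74) were lower. The kappa cells of this setting were the 124 with a share of at most 10%. These differences depended on the limits. With lambda cells from 80% among all B cells, edgeR called only S100a6 of these 10 genes against cells of at most 20%. Against cells under 50% it called none of them.

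Rag1, which encodes the recombinase that joins variable gene segments, was called where the lambda limit was set at 80%. In those 141 cells it was at 70.4, 125 and 48.6 CPM in mice 2, 3 and 4, against 2.46, 13.5 and 19.3 in the 427 cells with a share of at most 20% (log2 difference 2.84, SE 0.46, edgeR adjusted p = 0.0409). The UMIs behind this were 68 and 25. The lambda sums held 142025, 400011 and 164572 UMIs in mice 2, 3 and 4, so most of the 68 came from mouse 3. Against the 1523 cells with a share under 50% the difference was 3.57 (edgeR adjusted p = 0.00399), whereas with lambda cells from 50% and kappa cells up to 10% it was 0.87 (edgeR adjusted p = 0.699). Beside the light chain genes, 4 genes were called between at least 80% and at most 20%, and they are named here after their values were seen: Rag1, Nr4a1 (3.23), Zbtb32 (3.46) and S100a6 (3.13). The 80% limit was not run in the B-cell clusters alone. With the limits of 50% and 10%, Rag1 and Zbtb32 did not pass the filter on low counts there, while S100a6 was called by edgeR (2.75).

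Turning to the heavy chains, the IgD share of a B cell was taken as Ighd in percent of Ighm plus Ighd, in the 1814 B cells with at least 10 such UMIs. The median cell had 9.80%, 7.89% and 10.6% in mice 2, 3 and 4, and summed over cells there were 7.32, 8.16 and 7.13 Ighm UMIs for each Ighd UMI (7.53 ± 0.549, SD, n = 3). The share ran as 1 continuous range, with quartiles at 3.35% and 20%. No Ighd was seen in 238 cells (13.1%), and in 33 cells Ighd equalled or exceeded Ighm. The median share was 4.76% in kappa cells, 9.52% in mixed and 8.70% in lambda cells.

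The IgD share differed widely between B cells with Fcer2a and B cells with Vpreb3. With at least 1 UMI of one and none of the other, 334 B cells were Fcer2a-positive (17.9%) and 802 Vpreb3-positive (43.0%), while 455 held both genes and 275 neither. The share was 20.7%, 22.6% and 20.8% in Fcer2a-positive cells of mice 2, 3 and 4 (21.4% ± 1.10, SD, n = 3), against 6.97%, 6.64% and 7.82% in Vpreb3-positive cells (7.14% ± 0.606). In Fcer2a-positive cells there were thus 3.69 Ighm UMIs per Ighd UMI and in Vpreb3-positive cells 13.1. Cells with both genes stood between, at 17.99%, 14.96% and 16.9%, and cells with neither at 6.97%, 8.44% and 9.25%. The Fcer2a-positive values did not overlap the Vpreb3-positive ones (exact 2-sided permutation test, p = 0.1, the smallest that 3 against 3 allows). The same order held between the 2 B-cell clusters, as a description: 17.6% ± 0.489 in the cluster led by Fcer2a and 7.05% ± 0.438 in the one led by Vpreb3 and Ms4a1.

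Most of that difference was in Ighd itself. Its level was 1525, 1638 and 1410 CPM in Fcer2a-positive cells and 549, 663 and 491 in Vpreb3-positive cells, a log2 difference of 1.47 (SE 0.13, edgeR adjusted p = 0.000106), and 4.46% of the 7540 genes tested were called. Ighd was called under all 16 alternatives run, with log2 differences of 1.23 to 1.64. Ighm had a log2 difference of −0.37 that missed the threshold (SE 0.14, edgeR adjusted p = 0.184). It was called lower in Fcer2a-positive cells of the B-cell clusters alone (−0.58, adjusted p = 1.32e-05), after thinning every cell to 2000 UMIs (−0.65), with at least 5 Cd79a and Cd79b UMIs (−0.49) and among cells with a lambda share under 50% (−0.48). Its adjusted p ranged from 1.10e-05 to 0.616 over the alternatives.

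Among the light chains, Iglc1 went the other way. It was at 812, 901 and 842 CPM in Fcer2a-positive cells and at 1797, 2061 and 1259 in Vpreb3-positive cells, lower in 3 of 3 mice (log2 difference −0.96, SE 0.15, edgeR adjusted p = 0.00436). The value of 1259 is that of mouse 4, whose Vpreb3-positive sum holds much RNA of cells outside the B-cell clusters. Without mouse 2 the difference was −0.89 and missed the threshold (adjusted p = 0.207), and it was called under the other 15 alternatives. Igkc (log2 difference −0.05), Iglc2 (0.45) and Iglc3 (0.36) were not called, with adjusted p of 0.919, 0.217 and 0.198. Of these, Iglc2 was called under 1 of the 16 alternatives, and Igkc and Iglc3 under none. Iglc1 therefore made up 20.9%, 27.0% and 26.3% of lambda UMIs in Fcer2a-positive cells and 45.7%, 46.0% and 44.7% in Vpreb3-positive cells, without overlap (exact permutation p = 0.1). Within cells of a lambda share under 50% it made up 22.6% ± 0.596 and 39.9% ± 1.81 (n = 3 mice each), also without overlap.

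**Figure D3:**
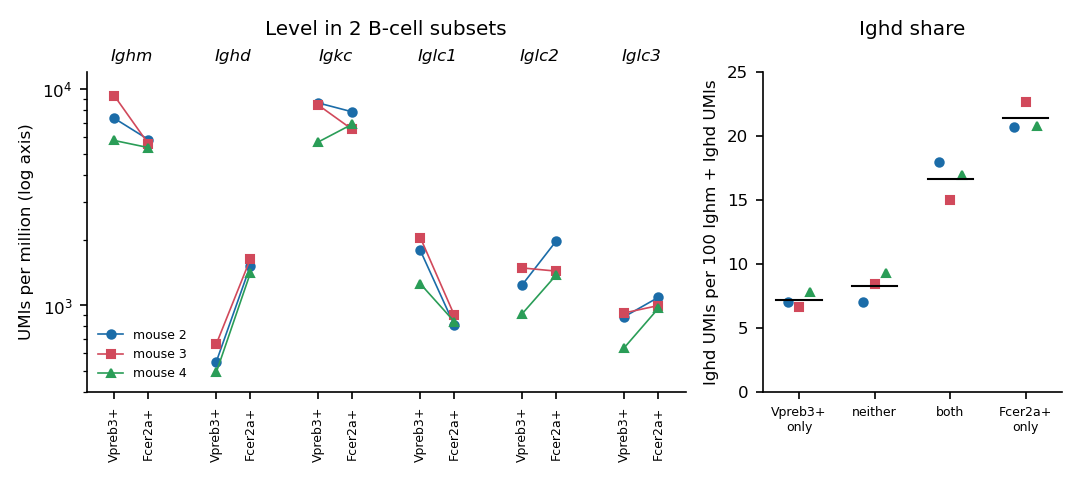
Left, CPM (log axis) of the 6 genes in Vpreb3-positive and Fcer2a-positive B cells, with a line joining the values of each mouse. Right, Ighd UMIs per 100 Ighm plus Ighd UMIs in 4 groups of B cells, with a bar at the mean of 3 mice, where Fcer2a-positive cells lie between 20.7 and 22.6 and Vpreb3-positive cells between 6.64 and 7.82.

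The other B-cell genes of the same comparison moved by list. Of 11 follicular genes tested 7 were higher in Fcer2a-positive cells and 0 lower (median log2 difference 1.21, against −0.01 over all genes). They included Cr2, the complement receptor CD21 (1.33), and the class II genes H2-Eb1 (1.40) and H2-Aa (1.30). Of 6 genes of immature B cells 4 were lower (median −1.18), namely Myb (−1.41), Cd24a (−1.29), Cd93 (−1.08) and Ly6d (−0.63). Rag1 was lower as well, with 0 UMIs in the Fcer2a-positive cells of all 3 mice and 31.5, 52.0 and 38.7 CPM in Vpreb3-positive cells. Of 24 genes of B-cell receptor signalling edgeR called only Cr2 higher and only Cd72, which encodes an inhibitory co-receptor, lower (−1.05, median of the list 0.11). An unadjusted p under 0.05 was reached by 12 of the 24, and DESeq2 called 4. Mki67, a gene of dividing cells, fell by 1.87 on the log2 scale, 1 of 2 genes tested of the germinal centre list.

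Genes of B-1 and marginal zone cells (0 of 8) and of plasma cells (0 of 5) were not called by edgeR, with 1 and 2 at an unadjusted p under 0.05, and DESeq2 called none of them. Of 336 genes called in all, 17 were called without mouse 2, 217 without mouse 4, 60 with at most 10% mitochondrial UMIs, 506 with the mouse as a block and 783 in B-cell clusters alone. Summed AT2 markers varied from 501 to 7351 CPM in Fcer2a-positive cells and from 280 to 3409 in Vpreb3-positive cells, without a consistent direction, and none was called.

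The same question was asked with IgD itself as the yardstick. Within each mouse, B cells were ordered by IgD share and cut into 3 ranges of like size, and the highest range (133, 301 and 171 cells, shares from 16.2%, 13.6% and 16.7% upward) was compared with the lowest (133, 301 and 170 cells, shares up to 5%, 4.62% and 5.41%). The ranges are cut from a continuous score, and 267 of the 1814 cells lay within 1 percentage point of a limit. Ighm and Ighd chose the ranges and are not tested. Fcer2a-positive cells as defined above were 33.1%, 38.9% and 32.2% of the highest range and 6.77%, 2.99% and 7.06% of the lowest.

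Iglc1 was the only light chain gene called. It was at 1097, 1019 and 941 CPM in the highest range and at 1787, 1997 and 1807 in the lowest (log2 difference −0.82, SE 0.10, edgeR adjusted p = 0.00223), where 4.31% of 7893 genes were called. Without mouse 3 the difference was −0.76 and missed the threshold (adjusted p = 0.0965), and it was called under the other 16 alternatives, with adjusted p from 5.62e-12 to 0.0248. Igkc (−0.10), Iglc2 (0.16) and Iglc3 (0.25) were not called, with adjusted p of 0.793, 0.652 and 0.319. Lambda cells were 17.3%, 16.9% and 16.4% of the highest range and 15.04%, 18.6% and 18.8% of the lowest, and the ranges overlapped.

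Zfp318, which encodes a nuclear protein needed for IgD expression, rose with IgD. It was at 340, 319 and 329 CPM in the highest range and at 75.7, 87.6 and 113 in the lowest (log2 difference 1.89, SE 0.13, edgeR adjusted p = 6.79e-05). Between Fcer2a-positive and Vpreb3-positive cells it was at 246, 281 and 356 against 116, 141 and 118 (log2 difference 1.27, edgeR adjusted p = 0.000697). It was the 1 gene of 4 tested of heavy chain RNA processing to be called in either comparison. Cstf2, Ell2 and Ptbp1, which act in cutting, elongation and splicing of RNA, had differences between −0.39 and −0.03.

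Markers of follicular B cells were higher where IgD was high. Of 12 follicular genes 9 were higher and 0 lower in the highest range (median log2 difference 1.13, against −0.02 over all genes), led by Fcer2a at 650, 666 and 731 CPM against 109, 118 and 105 (2.67, adjusted p = 2.68e-07 by edgeR). Icosl, a ligand of the T-cell costimulator ICOS (1.67), and Cr2 (1.51) were among the others. Of 24 receptor signalling genes edgeR called Cr2 and Cd22, an inhibitory co-receptor (0.53), higher and 0 lower (median −0.02), with 8 at an unadjusted p under 0.05. In B-cell clusters alone Cr2 (1.46) and Cd22 (0.43) were again called higher by edgeR, and Cd72 (−0.48) and Syk (−0.36) were called lower. Bcl6, the transcriptional repressor of germinal centre cells, was higher by 1.49 on the log2 scale at levels of 34.1 to 38.3 CPM.

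Some genes of the lists of immature cells and of B-1 and marginal zone cells were lower where IgD was high. Of 8 immature genes 4 were lower, Vpreb3 (−1.33), Myb (−1.15), Cd24a (−1.08) and Ly6d (−0.58), with a list median of −0.88. Of 9 genes of B-1 and marginal zone cells 4 were lower (median −0.84), Zbtb32 (−3.27), S100a6 (−2.61), Bhlhe41 (−1.19) and Plac8 (−0.90). Cd1d1 (−0.47, edgeR adjusted p = 0.275) and Dtx1 (−0.30, edgeR adjusted p = 0.802) of the same list were not called, so a fall of marginal zone genes as such is not shown. S100a6, a calcium-binding protein gene of B-1 cells, was at 25.01, 137 and 62.1 CPM in the highest range and at 508, 513 and 542 in the lowest. None of 5 plasma cell genes was called by edgeR or DESeq2, with 3 at an unadjusted p under 0.05.

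By size of change, the 8 genes highest with IgD were H2-Eb2 (2.97), Fcer2a, Fam101b (2.56), Rapgef4 (2.32), Stat4 (2.26), Xkrx (2.25), Ccr6 (2.25) and Pgap1 (2.04). Ccr6 encodes a chemokine receptor, at 61.7, 57.8 and 69.4 CPM against 4.37, 15.9 and 17.98. The 8 lowest were Il7r (−4.70), the receptor chain for interleukin 7, Mpeg1 (−3.48), Kit (−3.32), Zbtb32, Dusp5 (−3.23), 2810417H13Rik (−3.09), Scn7a (−3.00) and S100a6. Il7r and Kit were near 0 in the highest range, at 0 to 1.22 and 0 to 6.09 CPM, and at 13.1 to 30.3 and 19.9 to 65.5 in the lowest. Among B cells of the B-cell clusters alone, 11 of these 16 genes were tested and all 11 were called, while Il7r, Kit, Dusp5, 2810417H13Rik and Scn7a did not pass the filter on low counts. Kit and Scn7a were among the leading genes of a capillary endothelial cluster, and summed endothelial markers were at 293, 362 and 900 CPM in the highest range and at 728, 326 and 942 in the lowest, with 0 of 6 called. The part of endothelial RNA in both genes was not tested. Il7r was among the leading genes of the T-cell cluster, and 2810417H13Rik among those of an unnamed cluster led by Top2a and Mki67. Summed T-cell markers were at 0, 37.3 and 8.53 CPM in the highest range and at 1.46, 47.1 and 27.0 in the lowest, with 0 of 7 called. The part of RNA of other cells in Il7r and 2810417H13Rik was not tested. Summed myofibroblast markers were at 503, 54.0 and 101.1 CPM in the highest range and at 7.28, 197 and 175 in the lowest, and none was called.

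Of 340 genes called in all, 187 were higher and 153 lower in the highest range. The count was 87, 62 and 218 without mouse 2, 3 and 4, and 105 with at most 10% mitochondrial UMIs. It was 546 with the mouse as a block, 680 without marked doublets and 203 with DESeq2.

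**Figure D4:**
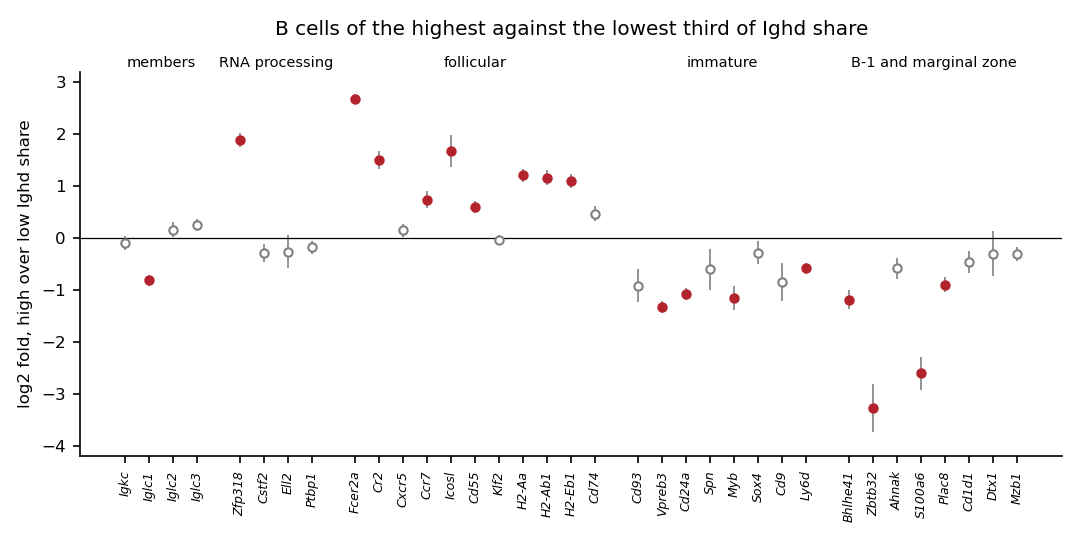
Log2 difference between the B cells with the highest and the lowest Ighd shares, for the 4 light chain genes and genes of 4 lists. Bars are 1 standard error derived from the edgeR test on the sums of 3 mice. Filled points are genes called by edgeR at an adjusted p of 0.05. Iglc1 is the only filled light chain gene at −0.82, Zfp318 stands alone in its list at 1.89, and filled follicular genes lie above 0 and filled immature and B-1 genes below.

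Outside B cells the genes were scarce, and in most structural types Ighm and Igkc stood near the ratio they had in B cells. If all such UMIs came from free B-cell RNA, Ighm and Igkc would stand in the ratio of the same mouse's B cells, 0.825, 1.03 and 0.936 Ighm UMIs per Igkc UMI. The 1020 AT2 cells held 87 Igkc UMIs and 82 Ighm UMIs, where that ratio gives 81.6. Capillary endothelial cells (EC) held 43 where it gives 49.9, club cells 35 where it gives 37.6, and AT1 cells 15 where it gives 19.8. In each of these types the 95% Poisson interval of the Ighm count covered the value at the B-cell ratio. By mouse, capillary EC held 3, 27 and 13 Ighm UMIs where it gives 12.4, 21.6 and 15.9. Ighd lay above its own B-cell ratio to Igkc in each of these types but within the interval, as in AT2 cells with 18 where it gives 10.7. The interval left out that value for Ighd in venous EC (5 against 1.01) and for Iglc2 in Col13a1 fibroblasts (10 against 3.42). It also left it out for Ighd in myofibroblasts (17 against 7.29). In Col14a1 fibroblasts it did so for Iglc1 (5 against 0.974) and Iglc2 (4 against 0.988). Both types are described further below.

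In several other immune types Ighm stood far above that ratio. The 201 T cells outside the B-cell rule held 634 Ighm UMIs (Poisson interval 586 to 685) beside 21 Igkc UMIs, where the B-cell ratio gives 20.04. The 158 NK cells held 312 where it gives 12.3, the 178 dendritic cells 291 where it gives 7.55, the 114 interstitial macrophages or monocytes 70 where it gives 2.06, and the 459 neutrophils 70 where it gives 15.6. These 4 values at the ratio rest on 13, 8, 2 and 16 Igkc UMIs, whose counting error the intervals leave out. For interstitial macrophages or monocytes the ratio gives 0, 2.06 and 0 in mice 2, 3 and 4, where 19, 33 and 18 Ighm UMIs were found. Ighd was also above it in T cells, with 30 UMIs where the ratio gives 2.61. The same held in NK cells, with 20 Ighd UMIs where it gives 1.60, and in dendritic cells, with 7 where it gives 0.998 (1, 6 and 0 by mouse). The lambda genes of T cells were not above it, with 5 UMIs of Iglc1 where it gives 4.07 and 0 of Iglc2 where it gives 4.21. Neutrophils held 11 Iglc2 UMIs (Poisson interval 5.49 to 19.7) where it gives 3.21.

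**Figure D5:**
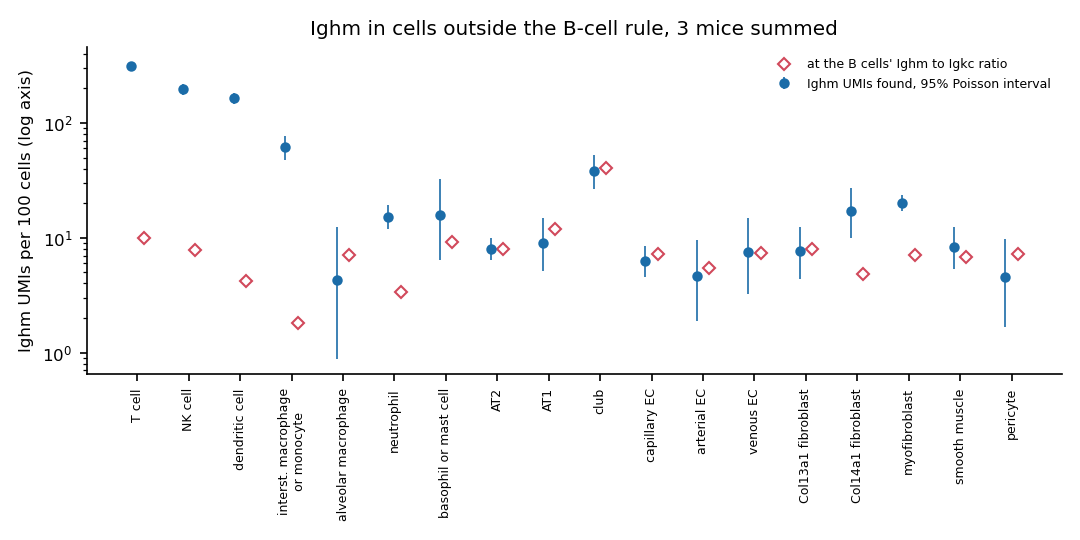
Ighm UMIs per 100 cells (log axis) in each cell type outside the B-cell rule, summed over 3 mice, with 95% Poisson intervals covering counting error only, and beside each the value at the B cells' Ighm to Igkc ratio. T cells, NK cells, dendritic cells and interstitial macrophages or monocytes lie far above the diamonds, whereas AT2, AT1, club and EC types lie on them.

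By mouse, Ighm was at 373, 562 and 529 CPM in T cells of mice 2, 3 and 4, against 4.28, 7.95 and 3.59 in AT2 cells, the epithelial type taken as background. Every T-cell value was higher than every AT2 value, as were those of NK cells (mean 308 CPM), dendritic cells (187) and interstitial macrophages or monocytes (199), each with an exact 2-sided permutation p of 0.1, the smallest possible. Igkc in dendritic cells (5.28 CPM) and in interstitial macrophages or monocytes (5.76) overlapped that of AT2 cells (5.62), with exact permutation p of 0.9 and 1, whereas in T cells (16.6 CPM) and NK cells (12.1) it was above AT2 cells in all 3 mice (exact permutation p = 0.1 for each). A UMI of Ighm was found in 65.2% of T cells at a median depth of 5823 UMIs and in 6.76% of AT2 cells at 16179.5. For Igkc the shares were 8.96% and 8.04%. CPM divides by the cells' own RNA. At the lower depth of T cells and of NK cells (cluster median 6208 UMIs), the same number of Igkc UMIs per cell gives a higher CPM than in AT2 cells. The part of depth in the higher Igkc CPM was not tested. After thinning to 1000 UMIs, Ighm was seen in 28.4% ± 4.34 of T cells and 0.620% ± 0.280 of AT2 cells (n = 3 mice).

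Within the T-cell cluster, Ighm counts were higher in cells with more CD3 RNA. The 161 T cells with at least 2 UMIs of the CD3 genes held 3.63 Ighm UMIs per cell and 69.6% had one, against 1.23 per cell and 47.5% in the 40 cells with fewer. Those 40 cells held more Il1rl1, a gene listed for innate lymphoid cells, at 5.775 UMIs per cell against 1.36. Whether they are T cells was not tested. Among T cells without any Cd79a or Cd79b UMI (174 cells) Ighm was still at 485 UMIs beside 17 of Igkc. The 18 T cells with at least 10 Ighm UMIs, chosen after their values were seen, held 345 Ighm, 24 Ighd and 8 Igkc UMIs. All 18 had at least 2 CD3 UMIs, 16 had a UMI of Cd4, 11 had no Igkc, and 0 were marked as doublets, where only the highest scores were marked. Their median depth was 10081 UMIs, against 5642 in the 161 cells. A choice by Ighm UMIs favours deep cells, in which CD3 and Cd4 are also found more easily. The share of all T cells with a Cd4 UMI is not given here, so 16 of 18 has no background. Since 3′ UMIs do not show which part of the locus a transcript starts from, the kind of Ighm transcript in these cells could not be read.

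Among stromal cells, myofibroblasts and Col14a1 fibroblasts held more Ighm than the B-cell ratio gives. The Col14a1 fibroblasts held 17 Ighm UMIs (95% Poisson interval 9.90 to 27.2) where the ratio gives 4.87. In mice 2, 3 and 4 these were 2, 12 and 3 where it gives 0, 2.06 and 2.81, so most of the excess was in mouse 3. The ratio rests on 5 Igkc UMIs, whose counting error the interval leaves out. The leading genes of this cluster also included Col2a1, Col10a1, Col11a1 and Acan, beside Dcn and Lum. The 794 myofibroblasts held 161 Ighm UMIs where the B-cell ratio gives 55.7 and 42 Iglc2 UMIs where it gives 11.6. Ighm was at 19.8 CPM on average, above AT2 cells in all 3 mice (exact permutation p = 0.1), and Igkc at 7.24 overlapped that of AT2 cells (p = 0.7 by the same exact test). Both myofibroblast clusters showed it, with 78 and 83 Ighm UMIs beside 34 and 24 of Igkc.

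Other constant genes were nearly absent from the B cells. Ighg3 (IgG3) had 45 UMIs in 20 cells (1.07%), Igha (IgA) 25 UMIs in 24 cells (1.29%), Iglc4 27 UMIs in 26 cells, and Jchain, which joins IgM and IgA into polymers, 28 UMIs in 15 cells. Ighg2b had 2 UMIs in 1 cell. Ighg1, Ighg2c and Ighe were found in 0 of 1866 cells, which allows a share of up to 0.161% of cells with a UMI.

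Over 56 sums of 19 named cell types and 3 mice, the genes whose level most resembled each of the 6 were found by Pearson r of log2(CPM + 1), given as a description since the sums share libraries. Iglc3 was closest to Fcmr, the Fc receptor for IgM (0.90), Iglc2 to the B-lineage transcription factor Pax5 (0.89), Igkc and Iglc1 to Il5ra (0.87 and 0.90), and Ighd to Cd79a (0.82). Igkc and Iglc3 were also close to Gm43291, whose span contains Igkc (0.86 and 0.90). The 5 genes nearest to Ighm were Gpr18 (0.90), Btla (0.87), Il21r (0.87), Tlr1 (0.87) and Gm8369 (0.85). None of these was among the 5 nearest of any of the other constant genes.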

How the data were processed

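Cells of whole mouse lung were counted by 10x Genomics 3′ single-cell RNA sequencing. The deposited matrices hold raw UMI counts per gene and cell, made by the authors with Cell Ranger 3.0.2 on mm10 per the submitters' processing notes; the gene annotation and the treatment of reads matching several genes are not given in the sources used here. The series' design text gives 5677 cells; the files hold 9644, and 7642 passed the filter used here (a minimum of 200 genes per cell, a maximum of 20% mitochondrial UMIs). The libraries shared 5, 2 and 5 barcodes pairwise and differed beyond sampling noise (chi-square of 5.71 or more for each degree of freedom). Cells were clustered with Seurat 5.3.0 and sctransform 0.4.2 (R 4.3.3; 2955 variable genes after 45 immunoglobulin genes were left out, 30 components, resolution 0.8); of 29 clusters 5 stayed unnamed. Scanpy 1.11.5 called under 0.5% doublets, so the highest scores were marked (0.8% per 1000 cells; 74, 79 and 97 cells) and kept.

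UMIs were summed per mouse and group and tested with edgeR 4.0.16 (TMM, filterByExpr, group as the only term); DESeq2 1.42.0 was an alternative. Groups of a mouse come from the same animal, so the mouse was also tried as a block (correlation of deviations −0.22 to 0.55). Counts were also simulated with 200 genes changed 4-fold, drawn independently with a fixed spread and without an effect of mouse. On these the test recovered 92.0% for cell classes, 92.0% for the Fcer2a and Vpreb3 subsets, 82.0% for the light chain classes and 91.5% for the IgD ranges. Smaller changes were not simulated, so these rates do not give the power for them in the real sums. Exact tests used scipy 1.17.1 and treated the groups as independent, without pairing the values of the same mouse. Named genes are the 6 constant genes, up to 4 per list, the 8 largest called changes per direction (at least 20 CPM, UMIs scaled to a common total, same direction in 3 mice), and the 5 nearest genes by correlation; Zfp318, Cstf2, Ell2 and Ptbp1 form a list. The genes and lists were chosen with earlier results of these data known. Values of some list genes are not reported here.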

Additional observations from a re-analysis of the deposited data

Results flagged for a closer look

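Some signal lay in data that the comparisons did not use. Of the 2002 cells outside the filter, 251 (12.5%) met the B-cell rule. Their median was 2294 UMIs per cell and 24.6% mitochondrial UMIs, with 13 Ighm, 2 Ighd and 11 Igkc UMIs in the median cell and an IgD share of 13.4%. A UMI of Ighg3 was found in 20 B cells and in 0 cells outside them, with up to 6 in a cell, and a UMI of Igha in 24 B cells and in 1 cell outside them, with at most 2 in a cell.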

How the results depend on the processing

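The 6 genes stayed higher in B cells than in every other class under all alternatives run, where genes with few UMIs outside B cells had to differ. Of all alternative values, 620 kept direction and side of the threshold, moved within the spread or, for counts of genes called, stayed of like size. These 620 include the differences of the 6 genes between B cells and the other classes, with 14 alternatives each. Another 8 reversed, 14 weakened, 18 strengthened and 17 moved. For the count of genes called in the IgD ranges, 6 alternatives were alike, 4 stronger and 7 weaker. For Fcer2a against Vpreb3 cells, 519 genes were called with no filter on low counts, 506 with the mouse as a block, 60 with at most 10% mitochondrial UMIs, 783 in B-cell clusters, and 17 to 342 with 1 mouse left out; Iglc1 then ranged from −1.09 to −0.89, and Igkc from −0.17 to 0.030, turning sign without mouse 3, and to 0.14 with at least 1 Cd79 UMI. For lambda against kappa cells, 31 genes were called by DESeq2, 59 with no filter, 16 with the block, 84 in B-cell clusters, 45 with at least 20 light chain UMIs, and 0 to 23 with 1 mouse left out; with lambda at 80%, Ighm turned to 0.16 against cells of at most 20% and to 0.16 against cells under 50%, and Ighd to −0.29 and −0.56. For the IgD ranges, 203 genes were called by DESeq2, 553 with no filter, 546 with the block, 105 with at most 10% mitochondrial UMIs, 680 without marked doublets, 603 in B-cell clusters, 160 with each mouse cut at its median in place of 3 ranges, 122 with at least 30 heavy chain UMIs, and 62 to 218 with 1 mouse left out; Iglc1 then ranged from −0.88 to −0.76, Igkc turned to 0.029 with at most 10% mitochondrial UMIs and Iglc2 to −0.021 with at least 30 heavy chain UMIs. The lambda share was 18.3% with no cell filter, 7.58% at the 80% limit (both settings), 15.1% with at least 20 light chain UMIs and 18.9% after thinning. The share of the 6 genes' UMIs in B cells was 97.2% with at most 10% mitochondrial UMIs, 98.7% with at least 1 Cd79 UMI, 98.6% with any Cd79 UMI taken out of other types, and 98.0% with no filter. The block changed no other call, and the cause of these changes was not tested. The settings that kept to B-cell clusters, set the lambda limit at 80% against cells under 50%, or kept lambda shares under 50% were chosen after seeing the data. A light chain class rests on few UMIs per cell (the median B cell held 33 of Igkc), so cells near a limit could fall on either side by counting error.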
